A study of Rattus norvegicus with 13 samples.

Results

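The microRNAs (miRNAs) described here are rno-miR-99a, rno-miR-99b, rno-miR-100, rno-miR-125a-5p, rno-miR-125a-3p and rno-miR-125b-5p (rno for rat, left out below), which share 3 gene clusters with members of the let-7 family. They were chosen by name, as 6 of the 677 rat miRNAs on the array, and all 6 were among the 176 that were detected on at least 6 arrays and tested. let-7a, let-7c and let-7e served as the cluster neighbours. The study asked whether the diet of a male rat changes miRNAs in the fat of its daughters. All animals were female Sprague Dawley offspring of mothers on normal chow, themselves weaned onto standard chow, and fat was taken at 14 weeks of age. In the group called HFD, 6 daughters came from fathers given pellets with 43% of fat, and in the group called Control, 7 daughters came from fathers on chow with 9% of fat; mating took place when fathers were 15 weeks old. Total RNA of each daughter (100 ng) was labelled with Cy3 and hybridised to 1 Agilent 1-colour rat miRNA array.

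The labels name no fat depot, father or litter, so sisters could not be modelled, and the p-values then reflect only how these animals varied. Samples are named below by group and animal number. Between 154 (Control 627) and 196 (HFD 663) miRNAs were detected per array, and no spot was saturated. The arrays lay on 2 slides: slide 1 held 4 Control and 4 HFD arrays, and slide 2 held 3 Control and 2 HFD arrays. Control 662, Control 664 and HFD 629 stood apart in miRNAs of skeletal and heart muscle. The mean log2 level of the 3 tested muscle miRNAs was 0.46, -0.13 and 0.50 there, -2.94 in Control 658, -2.30 in HFD 619, and between -5.06 and -4.35 in the other 8 arrays. The adipose list (miR-103, miR-107, miR-193, miR-365 and miR-378, abundant in fat but not exclusive to it) was detected and ranged from -0.42 to -0.0022. Of the 7 epithelial miRNAs listed, miR-200c, miR-141 and miR-429 were detected on no array, and 2 were tested. Of the 5 in the nerve and glia list, only the neuronal miR-124 was detected on no array, and 3 were tested. The mean log2 level of these 3 ran from -5.13 (HFD 620) to -2.34 (HFD 629), with HFD 663 at -2.46 and Control 656 at -2.71. In bulk tissue such as this, fewer cells of a type and less RNA per cell cannot be told apart.

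miRNAs are short RNAs that guide repressor proteins to messenger RNAs, chiefly through the seed near their 5′ end. A miRNA cluster is a group of hairpins encoded close together, which may be made from a common transcript and then be processed and degraded separately. The miR-99/100 family is known to target mTOR and the IGF1 receptor, parts of the insulin and growth signalling path. The miR-125 family is the mammalian counterpart of worm lin-4, and like let-7 it is known for roles in cell differentiation, including that of fat cells.

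The mature sequences are shown because shared seeds cut across the clusters: each cluster holds a miR-99/100 member, a let-7 member and a miR-125 member. They are from RefSeq (build GRCr8), 5′ to 3′, with the seed (bases 2 to 8) in capitals, and 8 of the 9 names were matched. The first pair has the miR-99/100 seed, to which family miR-99a also belongs by name, and the second pair the miR-125 seed. miR-125a-3p is the opposite strand of the miR-125a hairpin and has a seed of its own.
miR-99b: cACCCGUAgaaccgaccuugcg
miR-100: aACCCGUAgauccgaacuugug
miR-125a-5p: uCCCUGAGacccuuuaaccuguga
miR-125b-5p: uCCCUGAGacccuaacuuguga
miR-125a-3p: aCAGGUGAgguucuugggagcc
let-7a: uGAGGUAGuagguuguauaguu
let-7c: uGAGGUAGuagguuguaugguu
let-7e: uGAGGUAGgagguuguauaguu

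miR-99b and miR-100 were identical at 18 of 22 bases and differed, counted from the 5′ end of miR-99b, by C1A, A11U, C16A and C21U. miR-125a-5p and miR-125b-5p had 21 identical aligned bases. Among the 3 let-7 sequences, let-7a and let-7c differed by A19G alone, and let-7a and let-7e by U9G alone. let-7c and let-7e differed by U9G and G19A, with 20 identical bases. Probes for such sequences may share signal, and cross-hybridisation was not tested.

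In GRCr8, the mature miR-99b (chr1:67350070-67350091), let-7e (chr1:67350243-67350264), miR-125a-5p (chr1:67350689-67350712) and miR-125a-3p (chr1:67350727-67350748) lie on the plus strand within the span of the protein-coding gene Spaca6. miR-100 (chr8:50798307-50798328) and let-7a (chr8:50805219-50805240) lie on the plus strand with the Mir125b1 hairpin, within the span of Mir100hgl. let-7c (chr11:29688127-29688148) and miR-125b-5p (chr11:29732588-29732609) lie on the plus strand with Mir99a, within the span of the long non-coding gene LOC103693508. Whether the hairpins are exonic or intronic was not analysed here. miR-125b-5p is made from the hairpins of both Mir125b1 and Mir125b2, so its array level belongs to 2 clusters. let-7a likewise has further gene copies.

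The first comparison was that of daughters of HFD fathers with daughters of Control fathers. No member of the families changed by the test: 5 of the 6 had lower means in HFD, by 0.018 to 0.14 on the log2 scale, miR-125a-3p had nearly the same mean as scaled here, and the groups overlapped for all 6. With limma and Benjamini-Hochberg adjustment over the 176 miRNAs, 0 of the 6 members and 0 of all 176 (0%) had an adjusted p under 0.05. At an unadjusted limma p under 0.05, the counts were 0 of 6 members and 2 of 176 (1.14%). Of all tested miRNAs, 48.3% had a difference below 0, and the median difference was 0.0028 over all of them and -0.078 over the 6 members. A log2 level is a scaled signal that depends on how bright a probe is, so levels of different miRNAs are not set against each other.

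**Figure D1:**
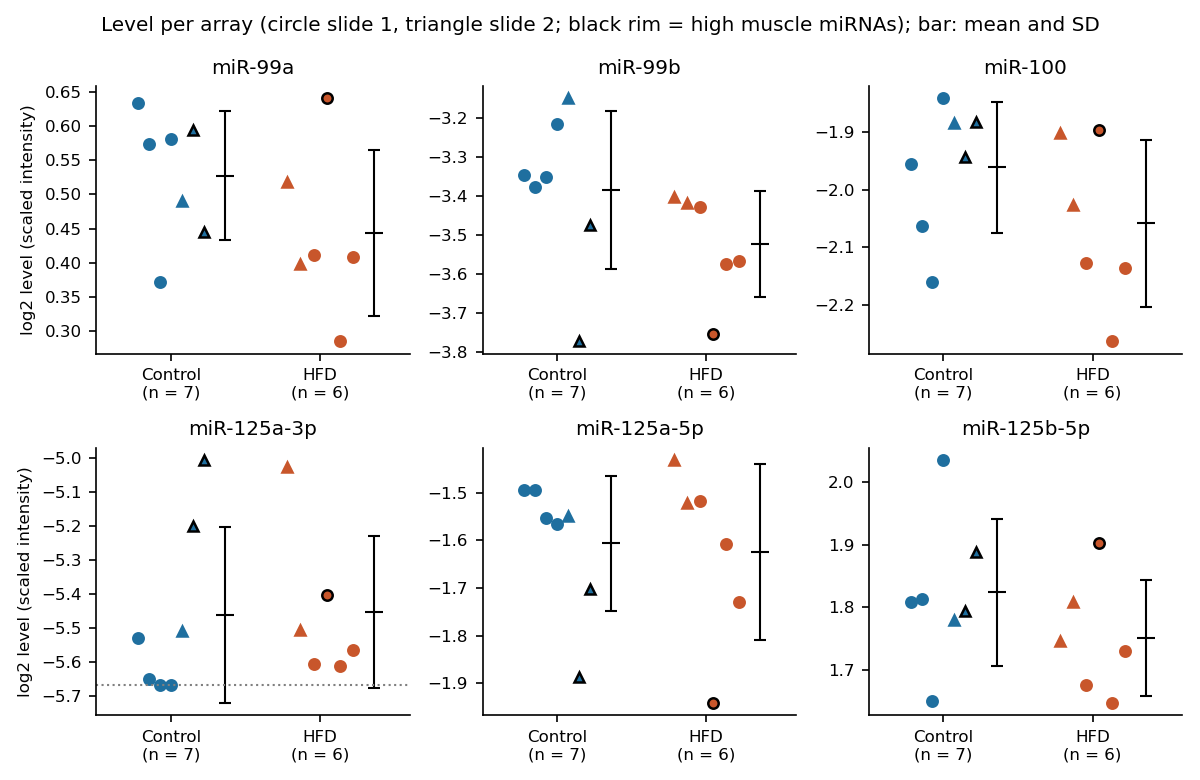
Log2 level (scaled intensity) of the 6 miRNAs on each of the 13 arrays, Control in blue (n = 7) and HFD in orange (n = 6), with circles for slide 1, triangles for slide 2, a black rim for the 3 arrays high in muscle miRNAs, and the mean and SD beside each group; the dotted line in the miR-125a-3p panel is the floor at -5.67. Groups overlap in every panel, the 3 rimmed arrays include the lowest for miR-125a-5p, and the miR-125a-3p values lie within 0.66 of the floor.

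miR-99a, of the miR-99/100 family, lay between 0.37 and 0.63 in Control with a median of 0.57, and between 0.29 and 0.64 in HFD with a median of 0.41. HFD 629 was highest of all and HFD 660 lowest, and 5 of the 6 HFD arrays were below the Control mean. The difference, HFD minus Control, was -0.084 ± 0.061 (SE; limma adjusted p = 0.965). miR-99b lay between -3.77 and -3.15 in Control with a median of -3.35, and between -3.75 and -3.40 in HFD with a median of -3.50. All 6 HFD arrays were below the Control mean, yet the lowest array was Control 662, next to HFD 629. Its difference of -0.14 ± 0.094 (limma adjusted p = 0.965) was the largest of the 6, a 0.908-fold level in HFD with a 95% interval of 0.788 to 1.05.

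miR-100, which shares its seed with miR-99b, ranged from -2.16 to -1.84 in Control with a median of -1.94, and from -2.26 to -1.90 in HFD with a median of -2.08. HFD 660 and Control 631 were lowest, as they also were for miR-99a and miR-125b-5p, and Control 656 was highest. The difference was -0.097 ± 0.071 (limma adjusted p = 0.965). The 3 members of this family thus had 95% intervals that included 0, with lower ends at -0.22 for miR-99a, -0.34 for miR-99b and -0.25 for miR-100. Without HFD 660, the differences were -0.052 for miR-99a and -0.056 for miR-100. With any single array left out, they ran from -0.12 to -0.052 for miR-99a, -0.20 to -0.093 for miR-99b and -0.13 to -0.056 for miR-100. Without the 3 arrays high in muscle miRNAs they were -0.13, -0.19 and -0.11 in the same order (limma adjusted p = 0.659 for each).

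miR-125a-5p ranged from -1.89 to -1.49 in Control with a median of -1.55, and from -1.94 to -1.43 in HFD with a median of -1.56. HFD held both the lowest array, HFD 629, and the highest, HFD 619, and 3 of its 6 arrays were below the Control mean. The difference was -0.018 ± 0.088 (limma adjusted p = 0.987). miR-125b-5p, which shares the seed of miR-125a-5p, ranged from 1.65 to 2.04 in Control with a median of 1.81, and from 1.65 to 1.90 in HFD with a median of 1.74. 5 of the 6 HFD arrays were below the Control mean, and Control 656 was highest. Its difference was -0.072 ± 0.060 (limma adjusted p = 0.965). With single arrays left out it ran from -0.10 without HFD 629 to -0.037 without Control 656.

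miR-125a-3p, the opposite strand of miR-125a-5p, was dim. It was detected on 12 of 13 arrays, 2 of its 4 probes stayed at the floor on all of them, and Control 631 and Control 656 were at the floor with all probes. Its level ranged from -5.67, the floor, to -5.01 in Control with a median of -5.53, and from -5.61 to -5.03 in HFD with a median of -5.54. The high arrays were Control 664, HFD 619 and Control 662, all on slide 2. The difference was 0.0078 ± 0.13 (limma adjusted p = 0.999); it was 0.24 with the total gene signal and 0.31 in the deposited table, neither of which passed (limma adjusted p = 0.984 and 0.992). Its probes varied from spot to spot by an SD of 0.22 to 0.44, against 0.048 to 0.10 for the probes of the other members.

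The cluster neighbours also overlapped between the groups. Their differences, HFD minus Control, were -0.0090 ± 0.071 for let-7a, -0.026 ± 0.075 for let-7c and -0.042 ± 0.074 for let-7e, with limma adjusted p of 0.996, 0.983 and 0.983. Of the 8 tested let-7 miRNAs, 6 had a difference below 0, within a range of -0.055 to 0.031. Opposite strands were mostly not seen: let-7c-1*, let-7e*, miR-100*, miR-125b*, miR-125b-3p and miR-99b* were well above background on no array. let-7a-1* was detected on all 13 arrays, and miR-99a* on 10 of 13, near the floor, with a difference of 0.011 ± 0.042 (limma adjusted p = 0.983).

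**Figure D2:**
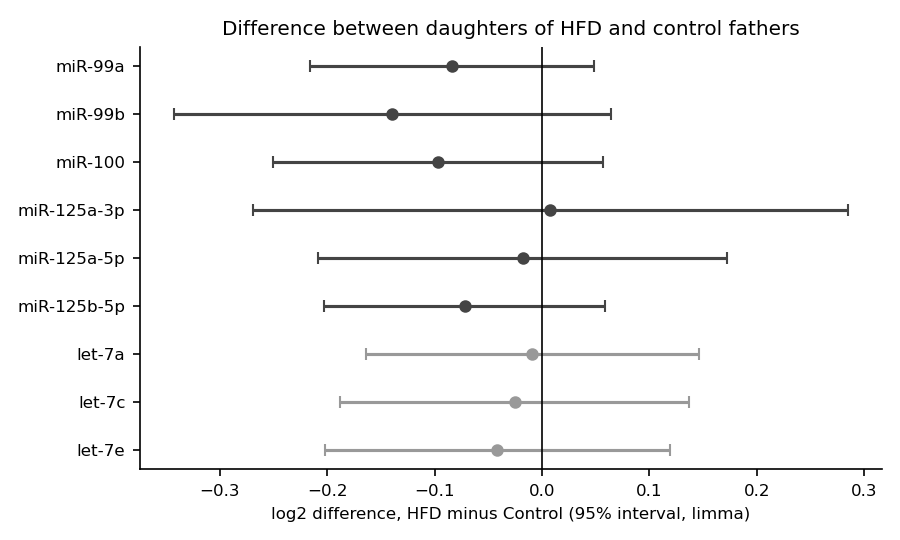
Log2 difference, HFD minus Control, of the 6 miRNAs (dark) and the 3 let-7 neighbours (grey), with 95% intervals from limma over 7 Control and 6 HFD arrays. All 9 intervals include 0; the interval of miR-99b runs from -0.34 to 0.064 and that of miR-125a-3p, the widest, from -0.27 to 0.29.

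Each member was read by 2 probes of 10 spots each, save miR-125a-3p with 4 probes of 5 spots. Both probes were lower in HFD for miR-99a, miR-99b, miR-100, miR-125a-5p and miR-125b-5p. The correlation of the 2 probes over the 13 arrays was 0.967 for miR-125a-5p, 0.933 for miR-99b and 0.869 for miR-99a, and only 0.731 for miR-125b-5p and 0.703 for miR-100. Over the 13 arrays the SD of the level was 0.11 for miR-99a and miR-125b-5p, 0.13 for miR-100, 0.16 for miR-125a-5p, 0.18 for miR-99b and 0.23 for miR-125a-3p, against a median SD of 0.15 over the 176 tested miRNAs.

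The contrast was then taken within each slide. miR-99a, miR-100 and miR-125b-5p had lower HFD means on both slides: -0.10, -0.10 and -0.087 on slide 1, and -0.052, -0.061 and -0.044 on slide 2. The miRNAs of the Spaca6 locus did not keep a direction. miR-125a-5p was lower in HFD on slide 1 by -0.17 ± 0.089 and higher on slide 2 by 0.24 ± 0.12, and miR-99b was lower on slide 1 by -0.26 ± 0.074 and higher on slide 2 by 0.056 ± 0.20 (limma adjusted p of 0.273 to 0.917 in these 4 contrasts). The let-7 neighbours likewise had differences of -0.12, -0.15 and -0.16 on slide 1 and 0.17, 0.19 and 0.16 on slide 2 (let-7a, let-7c and let-7e).

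By limma's test of the difference between the slides (interaction), 0 of the 6 members passed an adjusted p under 0.05, against 1 of the 176 miRNAs (0.568%); at an unadjusted p under 0.05 it was 1 member, miR-125a-5p, and 19.3% of all. The interaction was 0.41 ± 0.15 for miR-125a-5p (adjusted p = 0.226) and 0.31 ± 0.19 for miR-99b (adjusted p = 0.405; 0.16 without Control 662 and 0.47 without Control 658), and between -0.11 and 0.052 for the others. For the neighbours let-7a, let-7c and let-7e it was 0.29 ± 0.13, 0.34 ± 0.13 and 0.32 ± 0.13. Their unadjusted limma p was 0.049, 0.028 and 0.035, and adjusted 0.255, 0.226 and 0.226. Of the 3 arrays high in muscle miRNAs, HFD 629 was among the 4 HFD arrays of slide 1, and Control 662 and Control 664 among the 3 Control arrays of slide 2. The part of these 3 arrays in the opposite signs was not tested.

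Between the slides themselves, 0 of the 6 members and 0 of the 176 miRNAs (0%) passed an adjusted p under 0.05 with limma; at an unadjusted p under 0.05 it was 1 member and 12.5% of all. That member was miR-125a-3p, higher on slide 2 by 0.34 ± 0.094 (adjusted p = 0.161).

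The second question was whether miRNAs of a cluster rise and fall together from animal to animal. Over all 13 arrays, miR-99b, let-7e and miR-125a-5p, from the same locus, varied together, and so did miR-100, miR-99a and miR-125b-5p, from the other 2 loci; which pairs passed depended on the scaling and on a few arrays. As scaled here, let-7a and let-7c followed each other and let-7e instead of miR-99a, miR-100 or miR-125b-5p, and miR-125a-3p did not follow miR-125a-5p. Of 36 pairs among the 9 miRNAs, 12 lie within a cluster; p-values are from two-sided permutation tests, adjusted over the 36. By Pearson's r, 5 of the 12 pairs passed an adjusted p under 0.05, and by Spearman's rho 3 of the 12. The count by r was 2 without HFD 629 and 1 without the 3 arrays high in muscle miRNAs, and across scalings it ran from 3 (quantile normalization) to 9 (75th percentile over all probes). Of the 24 pairs from different clusters 5 passed by r and 4 by rho. With scaling over all probes 28 of the 36 pairs passed, among them miR-99b with miR-100 (r = 0.718) and miR-125a-5p with miR-125b-5p (r = 0.640). Without the 3 arrays high in muscle miRNAs, miR-99b had its higher r with miR-100 (0.788, adjusted permutation p = 0.049) and miR-99a (0.593, adjusted 0.212), above that with miR-125a-5p (0.410). let-7e then had r = 0.772 with miR-99a (adjusted permutation p = 0.051), against 0.601 with miR-125a-5p and 0.378 with miR-99b. The median r was 0.148 within clusters, 0.137 between clusters and 0.028 over the 6670 pairs of the 116 miRNAs with no probe at the floor.

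**Figure D3:**
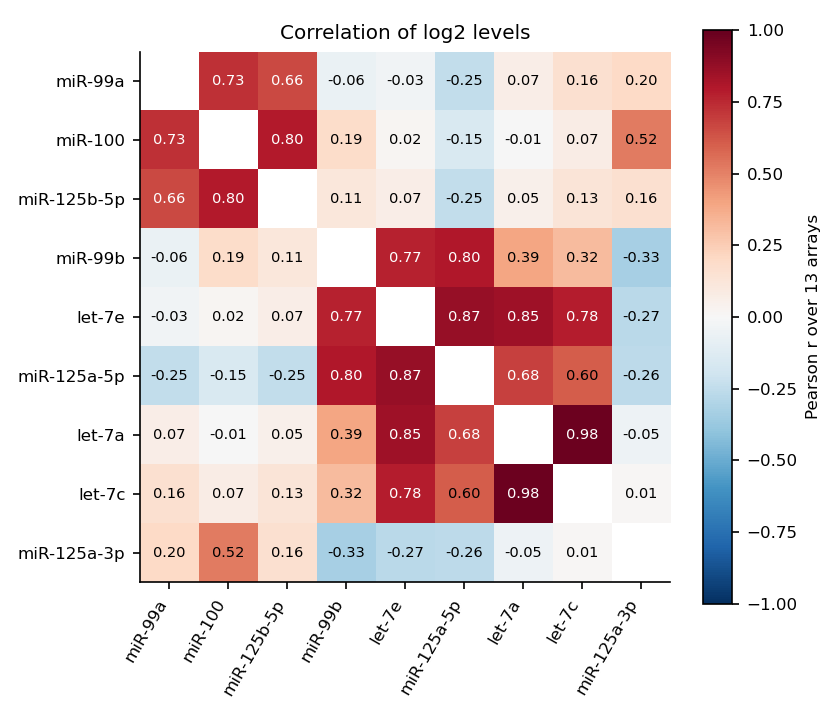
Pearson r of log2 levels over the 13 arrays for the 6 miRNAs and 3 let-7 neighbours, ordered so that miRNAs that varied together stand next to each other; red is positive and blue negative. A block of miR-99a, miR-100 and miR-125b-5p (0.66 to 0.80), a block of miR-99b, let-7e and miR-125a-5p (0.77 to 0.87) and a let-7 block (0.78 to 0.98) stand out. The 9 values between the first and second blocks lie between -0.25 and 0.19. With scaling over all probes these values reached 0.742 (miR-125b-5p with let-7e). Without the 3 arrays high in muscle miRNAs they reached 0.788 (miR-99b with miR-100) and 0.772 (miR-99a with let-7e).

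In the locus within Spaca6, miR-125a-5p and let-7e had the highest r, 0.868 (permutation p = 0.00046, adjusted 0.0055), with rho = 0.797 (permutation p = 0.0019, adjusted 0.021). For miR-99b and miR-125a-5p, r was 0.801 (permutation p = 0.0012, adjusted 0.0073) and rho 0.648 (p = 0.019, adjusted 0.069). For miR-99b and let-7e, r was 0.770 (permutation p = 0.0025, adjusted 0.013) and rho 0.670 (p = 0.015, adjusted 0.058). Only the pair of miR-125a-5p and let-7e thus passed by both measures.

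These 3 relations rest in part on a pair of arrays. HFD 629 and Control 662, both high in muscle miRNAs, were the lowest arrays for miR-99b, for miR-125a-5p and for let-7e. They are also the 2 arrays farthest from the median of miR-99b and of miR-125a-5p. Without them r was 0.583 for miR-125a-5p with let-7e, 0.454 for miR-99b with miR-125a-5p and 0.397 for miR-99b with let-7e (permutation p = 0.059, 0.16 and 0.23). Without all 3 arrays high in muscle miRNAs, r was 0.601, 0.410 and 0.378 in the same order, and none of the 3 passed (the adjusted permutation p of the first was 0.198). Within slide 1 (8 arrays, exact permutation test) r was 0.867, 0.837 and 0.816 in the same order, with p = 0.0047, 0.0099 and 0.013; that slide holds HFD 629. No correlation is given for slide 2, which holds 5 arrays.

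miR-100 and miR-125b-5p had r = 0.796 (permutation p = 0.00088, adjusted 0.0073) and rho = 0.775 (p = 0.0030, adjusted 0.021). Without the 2 arrays farthest from the median of miR-100, HFD 660 and Control 631, r was 0.689 (permutation p = 0.015), and it passed without the 3 arrays high in muscle miRNAs too. Under quantile normalization, however, r was 0.375 for this pair and 0.273 for miR-99a with miR-125b-5p, and neither passed. Within slide 1 r was 0.936 (8 arrays, exact permutation p = 0.00032). miR-99a and miR-125b-5p had r = 0.662 (permutation p = 0.013, adjusted 0.045) and rho = 0.725 (p = 0.0065, adjusted 0.033). Without HFD 660 and HFD 629 their r was 0.523 (permutation p = 0.093). The call was marginal and was lost in 12 of 24 alternatives, some with an r no lower than over all arrays, such as 0.679 without HFD 619 (adjusted 0.052) and 0.703 without the 3 arrays high in muscle miRNAs (adjusted 0.076), and others with a lower r, such as 0.580 without HFD 660 (adjusted 0.146). Within slide 1 r was 0.803 (8 arrays, exact permutation p = 0.014).

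miR-99a and miR-100, relatives by family whose genes lie on chromosomes 11 and 8, had r = 0.734 (permutation p = 0.0050, adjusted 0.022) and rho = 0.637 (p = 0.021, adjusted 0.070). Under quantile normalization r was 0.509 (adjusted permutation p = 0.261), without HFD 660 and HFD 629 it was 0.577 (permutation p = 0.065), and within slide 1 it was 0.909 (8 arrays, exact permutation p = 0.0024). The other relatives within a family had lower values over all 13 arrays, which turned under alternatives. miR-99b and miR-100 had r = 0.186, and 0.718 with scaling over all probes. miR-99a and miR-99b had r = -0.064, and 0.630 with that scaling and 0.593 without the 3 arrays high in muscle miRNAs. miR-125a-5p and miR-125b-5p had r = -0.246, and 0.640 with that scaling and 0.125 without the 3 arrays.

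**Figure D4:**
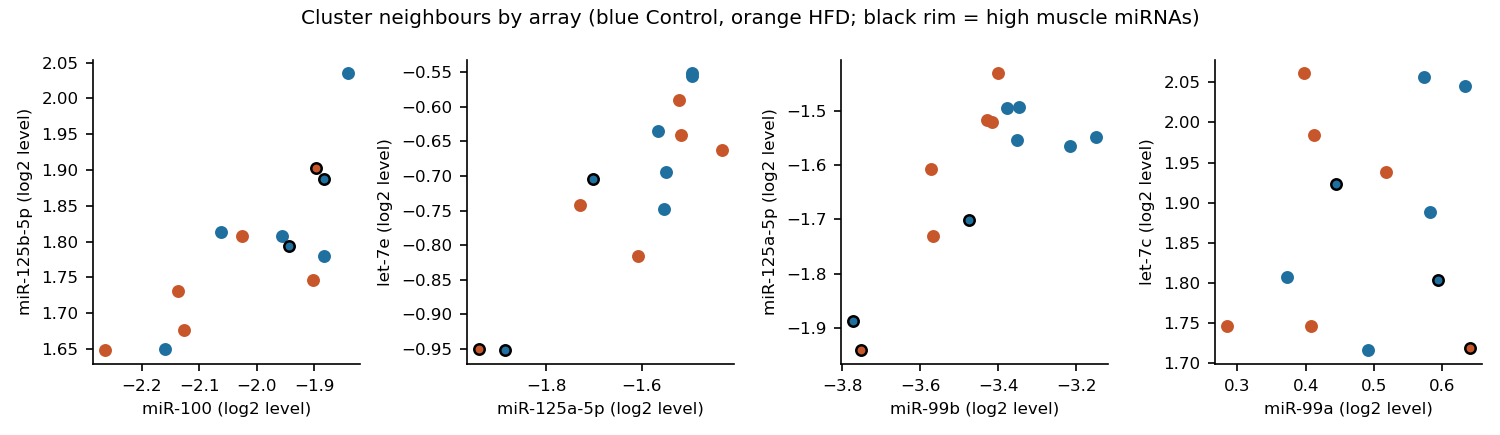
Log2 level of cluster neighbours plotted against each other, 1 point per array (blue Control, n = 7; orange HFD, n = 6; black rim for Control 662, Control 664 and HFD 629). miR-100 and miR-125b-5p rise together over all arrays (r = 0.796), HFD 629 and Control 662 lie at the low corner for let-7e against miR-125a-5p (r = 0.868) and for miR-125a-5p against miR-99b (r = 0.801), and let-7c shows no clear relation to miR-99a (r = 0.163).

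The let-7 neighbours of miR-99a, miR-100 and miR-125b-5p did not follow them, save where arrays were scaled over all probes or left unscaled as in the deposited table: for miR-100 with let-7a r was then 0.590 and 0.782. As scaled here, r was 0.163 for miR-99a with let-7c, -0.0054 for miR-100 with let-7a, 0.052 for miR-125b-5p with let-7a and 0.132 for miR-125b-5p with let-7c (adjusted permutation p of 0.926 to 0.986). let-7a and let-7c, by contrast, had r = 0.978 with each other (adjusted permutation p = 0.00036), although their genes lie in different clusters; these sequences differ by a single base. let-7e had r = 0.850 with let-7a and 0.783 with let-7c. miR-125a-5p also had r = 0.681 with let-7a, from another cluster (permutation p = 0.0088, adjusted 0.035; rho = 0.731, adjusted 0.033), and r = 0.514 without HFD 629 and Control 662 (permutation p = 0.11).

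miR-125a-3p had r = -0.260 with miR-125a-5p, -0.331 with miR-99b and -0.270 with let-7e, with adjusted permutation p of 0.687 to 0.790. Its level is close to the floor, and its r with miR-125a-5p was 0.479 without the 3 arrays high in muscle miRNAs. With scaling by the median, r was -0.633, -0.643 and -0.637 with miR-125a-5p, miR-99b and let-7e. With the total gene signal it was -0.621, -0.648 and -0.686 in the same order. All of these passed, with adjusted permutation p of 0.025 to 0.0496.

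How tightly neighbours were coupled was also described by their ratio within an array, in which a scaling factor per array cancels for miRNAs above the floor. miR-125a-3p, with probes at the floor on all 13 arrays, was left out. The SD of the log2 ratio over the 13 arrays was 0.078 for miR-125a-5p over let-7e, 0.080 for miR-100 over miR-125b-5p and 0.090 for miR-99a over miR-125b-5p. Of the 6670 pairs of the 116 miRNAs, 0.72%, 0.855% and 1.54% had a smaller SD, and the median SD was 0.24. miR-99b over miR-125a-5p (SD 0.11) and miR-99b over let-7e (SD 0.12) were next, with 3.64% and 4.63% of pairs below them. Ratios of miR-99a, miR-100 or miR-125b-5p to let-7a or let-7c were looser, with SDs of 0.16 to 0.18. Members with small SDs of their own also give ratios with small SDs, so these shares describe the arrays and test nothing.

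**Figure D5:**
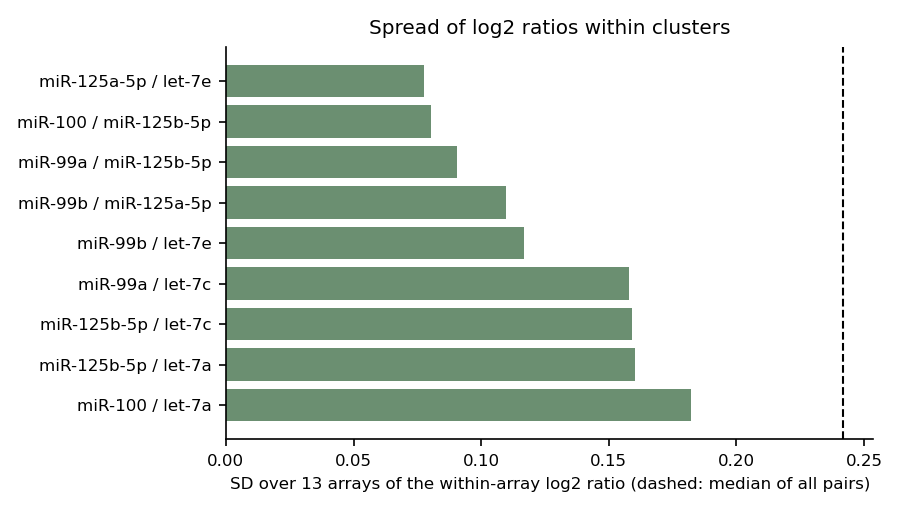
SD over the 13 arrays of the log2 ratio of 2 miRNAs of a cluster measured on the same array, for 9 such pairs; the dashed line is the median over 6670 pairs (0.24). Bars run from 0.078 for miR-125a-5p over let-7e to 0.18 for miR-100 over let-7a.

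These 9 ratios and that of miR-125a-5p over miR-125a-3p, which the floor bounds, were compared between the groups by exact permutation (two-sided), and none passed after adjustment; the smallest p this design allows is 0.000583. The lowest p was that of miR-99b over miR-125a-5p. This log2 ratio lay between -1.88 and -1.60 in Control and between -1.97 and -1.81 in HFD, with Control 658 and Control 656 highest and all 6 HFD arrays below the Control mean. The difference was -0.12 (exact permutation p = 0.041, adjusted over the 10 ratios 0.408). miR-99b over let-7e differed by -0.097 (exact permutation p = 0.16, adjusted 0.765), and the other 8 by -0.088 to 0.024.

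The members were also set beside markers of other cells. The 3 arrays high in muscle miRNAs ranged from -1.94 to -1.70 in miR-125a-5p against -1.73 to -1.43 in the other 10, from -3.77 to -3.47 in miR-99b against -3.57 to -3.15, and from -0.95 to -0.70 in let-7e against -0.82 to -0.55. miR-100 was between -1.94 and -1.88 in the 3 arrays and between -2.26 and -1.84 in the others, and miR-125a-3p was between -5.40 and -5.01 against -5.67 to -5.03. Since muscle miRNAs form separate groups of arrays, no correlation is given over all 13; within the other 10 arrays r with the muscle list was 0.363 for miR-99b and 0.373 for miR-125a-5p, and the highest was 0.822 for miR-125a-3p (permutation p = 0.0093, adjusted over 54 pairs of a member and a list 0.25). Of these 10, HFD 619 was highest in both, at -2.30 for the muscle list and -5.03 for miR-125a-3p, which is near the floor. Control 658 was next in the muscle list, at -2.94. Over the same 10 arrays miR-99b had r = 0.713 with the smooth muscle and fibroblast list (permutation p = 0.0029, adjusted 0.154). Over all 13 it was 0.545, and -0.0065 without Control 658 and Control 656. The red cell list had r = -0.701 and rho = -0.665 with miR-125a-5p over the 13 arrays. Permutation p was 0.0058 and 0.015, adjusted over the 54 pairs 0.141 and 0.245. Without HFD 663 and HFD 629 r was -0.559, and within slide 1 it was -0.809. The let-7 neighbours were as negative with this list, at r = -0.722 for let-7a, -0.735 for let-7c and -0.725 for let-7e. For miR-99b r was -0.608 (permutation p = 0.028, adjusted 0.304), and for the other members it lay between -0.241 and 0.359. The red cell list was 0.52 higher in HFD (exact permutation p = 0.152, adjusted 0.454). Between the groups the adipose list was higher in HFD by 0.12 (exact permutation p = 0.061, adjusted 0.275). The smooth muscle and fibroblast list was lower in HFD by -0.36 (exact permutation p = 0.036, adjusted over 9 lists 0.275), with Control 658 at 0.045 and the others between -1.73 and -1.30. Over the 13 arrays the nerve and glia list had r = 0.613 with miR-99a, 0.535 with miR-125b-5p and -0.533 with miR-125a-5p. Permutation p was 0.028, 0.057 and 0.060, adjusted over the 54 pairs 0.304, 0.324 and 0.324. Without HFD 629 and HFD 663 r was 0.788, 0.675 and -0.171, and over the 10 arrays 0.508, 0.515 and -0.469. With the other members r lay between -0.278 and 0.297. The part of these cells in the levels of the members was not tested.

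As a description, likeness over the 13 arrays was taken by Pearson r for the members detected on all of them, which leaves out miR-125a-3p. The most like tested miRNAs were sought outside the families, among those with no probe at the floor. For miR-99a they were miR-10a-5p (0.803), miR-26a (0.764) and miR-26b (0.711), and for miR-100 miR-26b (0.785), miR-199a-3p (0.700) and miR-101a (0.631). For miR-99b they were let-7e (0.770), miR-324-5p (0.685) and miR-130a (0.645), and for miR-125a-5p miR-130a (0.868), let-7e (0.868) and miR-195 (0.818). For miR-125b-5p they were miR-301a (0.664), miR-338 (0.543) and miR-23b (0.525). For miR-125a-5p all 3 were closer than its closest member, miR-99b (0.801), and for miR-99a the first 2 were closer than miR-100 (0.734). In other cases a member was closer: miR-125b-5p was the most like of 115 miRNAs to miR-100, and miR-100 the most like to miR-125b-5p. For miR-99b, miR-125a-5p ranked 1 of 115 and miR-99a only 79.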

How the data were processed

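Fat RNA of 13 rats was read on 1-colour arrays, grouped by the sample titles. Per the file headers, the authors extracted spots with Agilent Feature Extraction 10.7.3.1 on an rn4 grid; the deposited spot values are background-subtracted intensity, and other deposited columns are flags for outliers, saturation and signal well above background. The deposited value table holds log2 of the total gene signal per miRNA, also a deposited intensity, with no scaling between arrays, as found by comparison with the scanner values (25 of 2569 values were off by over 0.001); RMA and Partek appear in the submitters' processing notes with no role given.

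Control spots and flagged spots (2.75%) were left out. The mean over the spots of each probe was scaled by the array's 75th percentile, taken over those 260 probes that every array detected. Values below 0.0197 (log2 -5.67) were set to that floor, and log2 values were averaged over a miRNA's probes. A probe was detected with at least 0.5 of its spots well above background, and a miRNA was tested where detected on at least 6 arrays. limma 3.58.1 in R 4.3.3 (lmFit, eBayes) gave two-sided tests with Benjamini-Hochberg adjustment at 0.05. It was also run on simulated data with independent noise per miRNA and no slide effects. That setting differs from these arrays, so nothing about the results above is drawn from it. Correlations used 100000 permutations (exact for 8 arrays), and ratios exact permutation. The number of arrays limits precision. The named miRNAs are the members, let-7a, let-7c and let-7e, their opposite strands, and the let-7 family as a count. Marker lists were added, and the 3 miRNAs most like each member that was detected on all arrays. Lists for 9 cell types were set: muscle, red cell, white cell, endothelium, smooth muscle and fibroblast, epithelium, nerve and glia, liver, and adipose; those whose group difference is not given above had adjusted exact permutation p of 0.539 to 0.916. The members and lists were chosen with earlier results of these data known. Alternatives were other scalings, quantile normalization, normexp with offset 50 (on median spot and background signals), the total gene signal, the deposited table, a floor raised 4 times, other detection filters, array weights, blocks for slide or animal number range, a muscle covariate, single slides, and fewer arrays.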

Additional observations from a re-analysis of the deposited data

Results flagged for a closer look

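Of 40 groups of values examined, 1 held a sample far from the others; chance alone flags about 1 in 20 such groups. In HFD, miR-125a-3p was -5.03 on HFD 619 and -5.40 on the next highest array, a gap of 0.647 of the range of the group. This array lies on slide 2, and the level is near the floor of -5.67.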

How the results depend on the processing

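No miRNA passed between the groups under any alternative run. Of 970 values recomputed under alternatives, 106 changed sign, most of them differences or correlations near 0. Without a change of sign, 19 correlations missed the threshold they had passed and 12 newly passed, and 6 counts moved by over 1.5 times. Among values that changed sign, miR-100 with let-7a also newly passed with scaling over all probes and in the deposited table (adjusted permutation p = 0.045 and 0.0042). The cause was not tested. The number of within-cluster pairs that passed, 5 of 12, was 9 with scaling over all probes or the deposited table, 8 with scaling by the median, 3 with quantile normalization, 1 without the 3 arrays high in muscle miRNAs, and 2 to 5 with any single array left out. The 8 include miR-125a-3p with miR-99b, miR-125a-5p and let-7e, each at a negative r, as do the 7 with the total gene signal. Within slide 2 the differences between groups were 0.056 for miR-99b, -0.027 for miR-125a-3p, 0.24 for miR-125a-5p, 0.17 for let-7a, 0.19 for let-7c, 0.16 for let-7e and -0.067 for miR-99a*. In the deposited table miR-125a-3p was 0.31, without a call, and the table gave 0.0026 for miR-125a-5p, 0.012 for let-7a and 0.0010 for let-7c. Normexp gave 0.0023 for let-7a and -0.021 for miR-99a*. miR-99a* was -0.012 with scaling over all probes and -0.0032 with quantile normalization. Without the 3 arrays, let-7a was 0.0084 and miR-99a* -0.0049. With a single array left out, differences ran from -0.077 to 0.084 for miR-125a-3p, -0.065 to 0.045 for miR-125a-5p, -0.039 to 0.026 for let-7a, -0.065 to 0.0038 for let-7c, -0.085 to 0.0013 for let-7e and -0.011 to 0.030 for miR-99a*. Slide differences then ran from -0.036 to 0.019 for miR-99a, -0.065 to 0.091 for miR-99b, -0.070 to 0.062 for miR-125a-5p and -0.017 to 0.051 for miR-125b-5p. Interactions then ran from -0.0081 to 0.12 for miR-99a, -0.022 to 0.11 for miR-100, -0.35 to 0.13 for miR-125a-3p and -0.026 to 0.10 for miR-125b-5p. The r of miR-100 with let-7a was 0.590 with scaling over all probes, 0.155 by the median, 0.029 with quantile normalization, 0.176 with normexp, 0.311 with total gene signal, 0.782 in the deposited table, 0.189 without the 3 arrays, 0.107 within slide 1, and -0.220 to 0.116 with single arrays left out. The r of miR-99a with let-7c was -0.031 with quantile normalization and -0.0046 to 0.369 with single arrays left out, a range of -0.069 to 0.216 for miR-125b-5p with let-7a. Normexp gave 0.124 for miR-125a-3p with miR-99b, 0.198 with miR-125a-5p and 0.205 with let-7e; the last was 0.039 in the deposited table, and the last 2 were 0.479 and 0.061 without the 3 arrays. Within slide 1 the log2 ratios differed between groups by 0.047 for miR-99a over let-7c, 0.064 for miR-125b-5p over let-7c, 0.018 for miR-100 over let-7a, 0.032 for miR-125b-5p over let-7a and -0.0076 for miR-125a-5p over let-7e, and within slide 2 by 0.26 for miR-125a-5p over miR-125a-3p. With single arrays left out, ratios ran from -0.038 to 0.0088 for miR-99a over miR-125b-5p, -0.00073 to 0.044 for miR-125a-5p over let-7e and -0.12 to 0.047 for miR-125a-5p over miR-125a-3p. With the floor raised 4 times, miR-125a-3p and miR-99a* gave no value, being at the floor throughout. Low signal over background limits the values of both. No paired analysis was possible because each animal number occurs in 1 group only.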
